A study of Mus musculus with 19 samples.

Results

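The mRNA levels of 9 genes known from blood monocytes and macrophages were followed in the leukocytes of DBA/2 and B6 mice after CAWS administration. The genes were Csf1r, Klf4, Cd68, Adgre1, Lyz2, Ctss, Spn, Cd9 and Ms4a7, and every probe of the array that the scanner files name after one of them was taken, including those under the older names Emr1 for Adgre1 and Lyzs for Lyz2. They are 9 of the 27597 gene names on the array and had 17 of its 41174 probes, of which 13 were bright enough to be tested, and each of the 9 genes had at least 1 tested probe. A gene is given below by its brightest probe, and its other probes are described afterwards.

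CAWS is a water-soluble mannoprotein fraction of the yeast Candida albicans that induces vasculitis of the aorta and coronary arteries when it is injected into mice. Male DBA/2 mice, in which this vasculitis can be lethal, and male B6 mice, in which it is mild, received it by intraperitoneal injection on consecutive days, and week 0 is the time just after the last injection. By this definition the mice of week 0 had received CAWS too, no uninjected mice were analysed here, and later groups hold survivors only. DBA/2 mice were sampled in duplicate at weeks 0, 2, 4, 8 and 9. B6 mice were sampled in duplicate at weeks 0, 4 and 8 and once at weeks 2 and 9, which makes 18 samples on 19 arrays, since 1 RNA of B6 mice at week 0 was hybridized to 2 arrays. The labels call the samples biological replicates and the methods speak of individual mice, and give 1 range of ages for all mice together, with no age for each group in the sources used here. RNA came from leukocytes captured from whole blood on a filter, so that RNA of granulocytes, lymphocytes and platelets could be present beside that of monocytes.

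Monocytes arise in the bone marrow, circulate in the blood and enter tissues, where they can become macrophages. Colony-stimulating factor 1 acts through the receptor encoded by Csf1r to keep monocytes and macrophages alive, and in the mouse, classical monocytes enter inflamed tissue while patrolling monocytes stay along the vessel wall. Several of the 9 genes are not restricted to monocytes, since neutrophils also make Lyz2, lymphocytes also carry the product of Spn, and platelets also carry the product of Cd9.

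Signals are given as scaled signals, in which 100 is the signal at the 75th percentile of an array, computed from the 11536 probes that exceeded background clearly on every array. A scaled signal compares 1 probe between samples, and levels of different genes were not compared. Changes are log2 differences between group means with their standard error (SE), tested with limma over 22939 probes with Benjamini-Hochberg adjustment and a threshold of 0.05. From 33.9% to 51.4% of the spots of an array were well above background. In whole blood a change in the number of monocytes and a change in mRNA per monocyte cannot be told apart.

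Of the samples, both of B6 mice at week 0 and both of B6 mice at week 8 carried strong signals of liver genes. The summed scaled signal of 9 hepatocyte genes was 4502 to 4630 in the B6 week 0 samples and 2357 to 2489 in the B6 week 8 samples, against 64.5 to 164 in all other samples. B6 week 0 is the reference of every change in B6 mice, so that no such change can be given without these samples. DBA/2 week 9 replicate 2 had 1187 spots marked as outliers, against 64 to 180 on the other arrays. None of the 17 probes of the 9 genes was marked on any array.

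Upstream sequence is shown for 4 of the genes that rose together in DBA/2 mice, because a shared feature of the promoter could be looked for there. The sequences are the 250 bases before the annotated start of each gene, 5′ to 3′ on the gene's strand, from RefSeq on GRCm38.p6. Capitals mark matches to GAGGAA on either strand, the core of the PU box that is bound by PU.1, the Spi1 product, a master regulator of the monocyte lineage.
Cd68, chr11:69666171-69666420, minus strand: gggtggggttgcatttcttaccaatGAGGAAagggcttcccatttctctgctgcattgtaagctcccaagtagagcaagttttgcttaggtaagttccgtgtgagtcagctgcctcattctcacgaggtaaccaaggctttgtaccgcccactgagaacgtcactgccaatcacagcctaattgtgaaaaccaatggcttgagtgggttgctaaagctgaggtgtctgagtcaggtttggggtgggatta
Ctss, chr3:95526536-95526785, plus strand: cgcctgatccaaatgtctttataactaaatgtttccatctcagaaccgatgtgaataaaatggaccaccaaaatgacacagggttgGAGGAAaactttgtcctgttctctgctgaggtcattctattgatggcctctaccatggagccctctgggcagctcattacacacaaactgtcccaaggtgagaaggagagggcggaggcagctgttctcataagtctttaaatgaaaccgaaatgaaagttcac
Lyz2, chr10:117282273-117282522, minus strand: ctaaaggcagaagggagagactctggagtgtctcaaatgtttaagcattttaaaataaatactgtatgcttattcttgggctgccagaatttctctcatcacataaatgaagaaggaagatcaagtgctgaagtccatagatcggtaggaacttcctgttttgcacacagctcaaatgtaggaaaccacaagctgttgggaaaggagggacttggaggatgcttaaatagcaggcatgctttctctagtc
Klf4, chr4:55532476-55532725, minus strand: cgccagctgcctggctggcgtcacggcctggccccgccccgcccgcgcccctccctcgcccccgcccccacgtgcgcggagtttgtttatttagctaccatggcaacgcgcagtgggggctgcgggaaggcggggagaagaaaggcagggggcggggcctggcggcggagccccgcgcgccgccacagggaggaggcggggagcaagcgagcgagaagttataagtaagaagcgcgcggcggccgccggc

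The match in Cd68 began 225 bases and that in Ctss 164 bases before the start, and the windows of Lyz2 and Klf4 held none. The table of promoters had entries for 7 of the 9 genes, with 8 promoters in all, of which 2 held the motif. Among all 32851 promoters of the table, 23.3% held it. A match describes these letters only and is not a measured site.

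In the mean of weeks 4 and 8, 6 of the 9 genes were higher than at week 0 in DBA/2 mice. By the same test of that mean none of the 9 was called higher in B6 mice with its brightest probe, although 3 were at week 8 alone and the dimmer Lyz2 probe was in the mean, as given below. The 6 genes were the receptor Csf1r, the transcription factor Klf4, the phagocyte surface and endosome proteins Adgre1 and Cd68, and the lysosomal or granule enzymes Lyz2 and Ctss. Their rise in that mean ranged from 1.66-fold for Klf4 to 2.96-fold for Csf1r among the 5 genes well above background in all samples. The dim Cd68 gave 2.98-fold, with 1 of its 2 DBA/2 week 0 samples not well above background, and with normexp background correction its log2 change was 0.50 and did not pass. Over all tested probes, 22.9% were called in this DBA/2 comparison and 9.79% were called higher, and the median log2 change was -0.14, against 0.82 for the 9 genes. Pan-leukocyte scaling gave 6 genes higher and 2 lower here, and the share of all called probes that were higher was 42.8%, against 18.97% with that scaling and 79.5% with normexp background correction. In B6 mice 15.0% of the probes were called, and 2 of the 9 genes were called, Adgre1 and Spn, both lower. None of the 9 was called there without B6 week 0 replicate 1, B6 week 0 replicate 2 or B6 week 8 replicate 2, nor with normexp. 

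**Figure D1:**
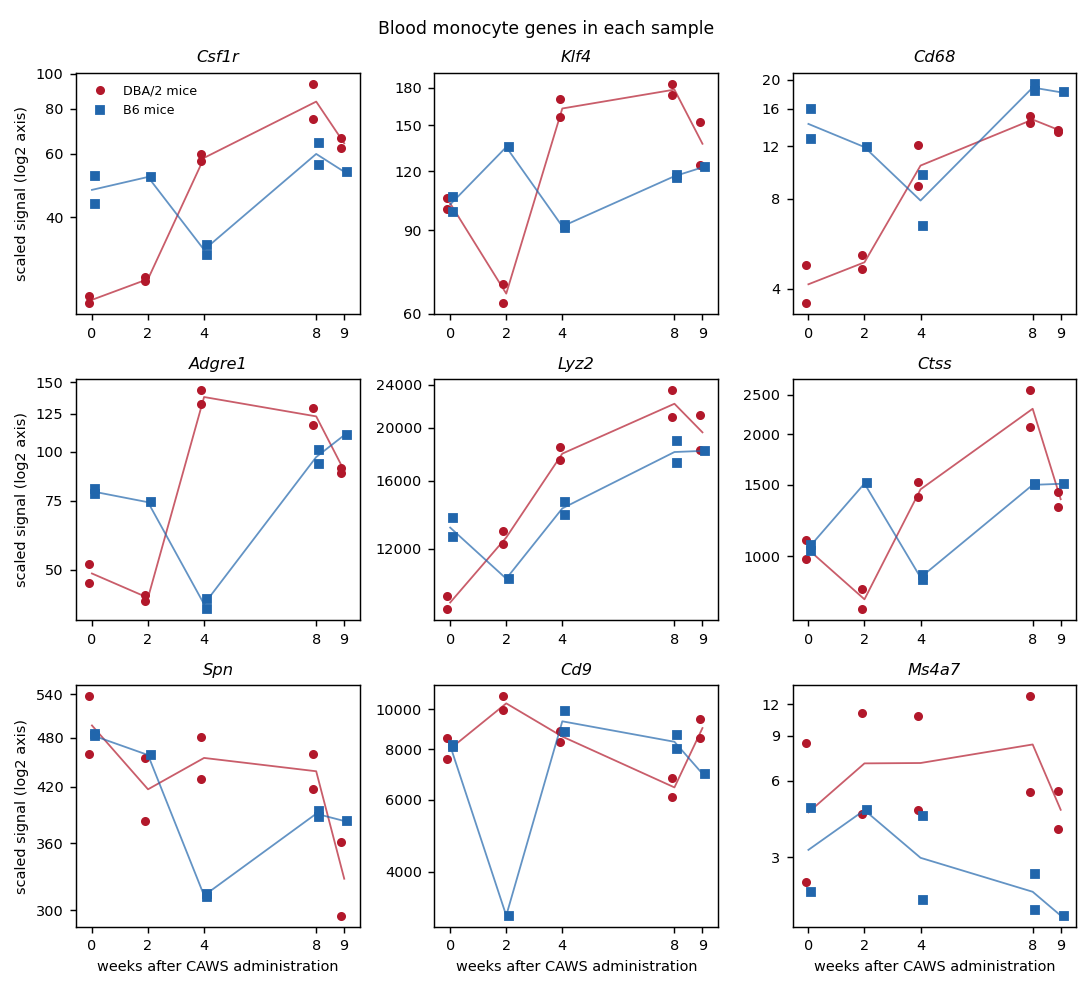
Scaled signal (log2 axis, 100 is the array's 75th percentile) of each gene's brightest probe against weeks after CAWS administration, with a red circle for each DBA/2 sample, a blue square for each B6 sample and lines through group means. Csf1r lay between 23.1 and 24.2 in DBA/2 mice at week 0 and between 74.9 and 93.5 at week 8, while B6 mice were between 43.6 and 52.1 at week 0 and between 56.0 and 64.2 at week 8.

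Csf1r encodes the receptor for colony-stimulating factor 1. In DBA/2 mice its scaled signal was 24.2 and 23.1 at week 0, 27.4 and 26.6 at week 2, 59.8 and 57.2 at week 4, 93.5 and 74.9 at week 8, and 62.2 and 66.2 at week 9. The B6 values were 52.1 and 43.6 at week 0, 51.8 at week 2, 33.5 and 31.5 at week 4, 64.2 and 56.0 at week 8, and 53.5 at week 9. All DBA/2 samples from week 4 on lay above all DBA/2 samples of week 0 and week 2, and the lowest B6 samples were those of week 4. The log2 change in DBA/2 mice was 1.31 ± 0.13 at week 4, 1.82 ± 0.13 at week 8 and 1.44 ± 0.13 at week 9, with adjusted p of 0.000151, 9.64e-06 and 5.64e-05. It was 0.19 ± 0.13 at week 2, which did not pass. In B6 mice Csf1r fell by 0.55 ± 0.13 on the log2 scale at week 4 (adjusted p = 0.0176), a call that was lost without B6 week 0 replicate 1 (-0.42), without either B6 week 4 replicate (-0.60 and -0.51) and with the mean over its 3 probes (-0.11). Of the neighbours in the order of the 10 group means, DBA/2 week 9 and B6 week 8, B6 week 8 and DBA/2 week 4, and B6 week 2 and B6 week 0 had overlapping samples.

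Klf4 encodes a transcription factor needed for monocyte differentiation. In DBA/2 mice its scaled signal was 105 and 99.96 at week 0, 69.4 and 63.1 at week 2, 170.2 and 156 at week 4, 183 and 174 at week 8, and 152 and 124 at week 9. The week 2 samples were thus below, and all later samples above, those of week 0. The log2 change was -0.63 ± 0.11 at week 2 (adjusted p = 0.0043), 0.67 ± 0.11 at week 4 (adjusted p = 0.00319), 0.80 ± 0.11 at week 8 (adjusted p = 0.000612) and 0.42 ± 0.11 at week 9 (adjusted p = 0.0179). B6 mice had scaled signals of 106 and 98.6 at week 0, 135 at week 2, 91.1 and 92.5 at week 4, 116 and 118 at week 8, and 122 at week 9. No B6 week passed the test, and the largest B6 difference was 0.40 ± 0.13 at week 2 (adjusted p = 0.0819), from 1 sample. At week 0 the samples of both strains overlapped.

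Cd68 encodes a protein of the endosomes and lysosomes of phagocytes, and Adgre1 encodes F4/80, a surface protein of mouse macrophages and monocytes. Cd68 was dim, and 17 of the 18 samples were well above background, the exception being DBA/2 week 0 replicate 2. Its scaled signal in DBA/2 mice was 4.79 and 3.58 at week 0, 5.18 and 4.64 at week 2, 12.1 and 8.85 at week 4, 15.1 and 14.3 at week 8, and 13.4 and 13.6 at week 9. The B6 samples had 16.0 and 12.6 at week 0, 11.9 at week 2, 6.49 and 9.59 at week 4, 19.3 and 18.4 at week 8, and 18.2 at week 9. The DBA/2 samples of week 0 and week 2 were the lowest of all 18. Cd68 rose in DBA/2 mice by a log2 change of 1.32 ± 0.22 at week 4, 1.83 ± 0.22 at week 8 and 1.71 ± 0.22 at week 9, with adjusted p of 0.00384, 0.000312 and 0.000487. In B6 mice it fell by 0.85 ± 0.22 on the log2 scale at week 4 (adjusted p = 0.0295), a call that was lost without either B6 week 0 replicate (-0.68 and -1.02) or without B6 week 4 replicate 1 (-0.57). 

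Adgre1 was well above background in all samples. In DBA/2 mice its scaled signal was 51.8 and 46.1 at week 0, 43.1 and 41.7 at week 2, 143 and 132 at week 4, 129 and 117 at week 8, and 90.7 and 88.0 at week 9. In B6 mice it was 80.2 and 78.2 at week 0, 74.3 at week 2, 39.6 and 42.1 at week 4, 101 and 93.0 at week 8, and 110.1 at week 9. At week 4 the DBA/2 samples were the highest of all and the B6 samples were among the lowest, overlapping with DBA/2 week 2. The log2 change in DBA/2 mice was 1.49 ± 0.09 at week 4, 1.33 ± 0.09 at week 8 and 0.87 ± 0.09 at week 9, with adjusted p of 8.37e-06, 8.84e-06 and 0.000149. In B6 mice Adgre1 fell by 0.96 ± 0.09 at week 4 on the same scale (adjusted p = 0.000155) and was higher by 0.29 ± 0.09 at week 8 (adjusted p = 0.0498) and by 0.48 ± 0.11 at week 9 (adjusted p = 0.0278). The B6 call at week 8 was lost when any of 16 of the 18 samples was left out, and scaling to pan-leukocyte genes turned its change to -0.09.

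Lyz2 encodes the lysozyme of monocytes, macrophages and neutrophils, and Ctss encodes cathepsin S, a lysosomal protease that acts in antigen presentation. The scaled signal of Lyz2 in DBA/2 mice was 9853 and 9292 at week 0, 12941 and 12249.8 at week 2, 18445 and 17441 at week 4, 23429 and 20918 at week 8, and 21141 and 18209.6 at week 9. The B6 values were 13644 and 12629.7 at week 0, 10581 at week 2, 14630.5 and 13852 at week 4, 18948 and 17209 at week 8, and 18143 at week 9. Every DBA/2 sample after week 0 lay above both DBA/2 week 0 samples. Lyz2 rose in DBA/2 mice at each week, with log2 changes of 0.40 ± 0.10 at week 2, 0.91 ± 0.10 at week 4, 1.21 ± 0.10 at week 8 and 1.04 ± 0.10 at week 9. Their adjusted p were 0.0296, 0.000415, 3.66e-05 and 0.000113, and the call at week 2 was lost without either DBA/2 week 0 replicate or either DBA/2 week 2 replicate. In B6 mice it rose by 0.46 ± 0.10 at week 8 (adjusted p = 0.0116) and 0.47 ± 0.13 at week 9 (adjusted p = 0.0499), and pan-leukocyte scaling gave 0.08 at week 8, while the call at week 9 held in 10 of 34 alternative settings.

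For Ctss the DBA/2 scaled signals were 1095 and 985 at week 0, 830.2 and 740.1 at week 2, 1522 and 1404 at week 4, 2562 and 2079 at week 8, and 1442 and 1324 at week 9. In B6 mice they were 1068 and 1028 at week 0, 1511 at week 2, 899.9 and 875 at week 4, 1503 and 1495 at week 8, and 1508 at week 9. The DBA/2 week 2 samples were the lowest and the DBA/2 week 8 samples the highest of the 18. Ctss fell in DBA/2 mice by 0.41 ± 0.11 on the log2 scale at week 2 and rose by 0.49 ± 0.11 at week 4, 1.15 ± 0.11 at week 8 and 0.41 ± 0.11 at week 9, with adjusted p of 0.0402, 0.0185, 9.14e-05 and 0.0245, and the fall held in 18 of 35 alternative settings. In B6 mice Ctss was higher by 0.53 ± 0.14 on the log2 scale at week 2, 0.52 ± 0.11 at week 8 and 0.53 ± 0.14 at week 9. The adjusted p were 0.0359, 0.0107 and 0.0467, and the call at week 9 held in 13 of 34 alternative settings.

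The other 3 genes did not follow this pattern. Spn encodes CD43, a sialoprotein of the leukocyte surface that is high on patrolling monocytes and also present on lymphocytes and neutrophils. Its DBA/2 scaled signals were 537 and 459 at week 0, 455 and 383 at week 2, 481 and 429 at week 4, 459 and 418 at week 8, and 362 and 296 at week 9. The B6 values were 485 and 482 at week 0, 458 at week 2, 311 and 314 at week 4, 394 and 387 at week 8, and 383 at week 9. Both DBA/2 week 9 samples were below every other DBA/2 sample. The log2 change was -0.60 ± 0.13 in DBA/2 mice at week 9 (adjusted p = 0.00731) and -0.63 ± 0.13 in B6 mice at week 4 (adjusted p = 0.0106), and Spn was also lower in the B6 mean of weeks 4 and 8, with -0.47 ± 0.11 (adjusted p = 0.0205). That last call was lost without either B6 week 0 replicate and without B6 week 8 replicate 2. The second Spn probe, well above background in all 18 samples, did not show the DBA/2 fall at week 9. Its mean scaled signal in DBA/2 mice was 52.0 at week 0 and 52.5 at week 9. In B6 mice that probe was lower at week 4 too, at 44.0 against 69.8 at week 0.

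Cd9 encodes a tetraspanin of monocytes, platelets and other cells. In DBA/2 mice its scaled signal was 8498 and 7549 at week 0, 10764 and 9954 at week 2, 8869 and 8305 at week 4, 6809 and 6092 at week 8, and 9499 and 8536 at week 9. The B6 samples had 8197 and 8110.3 at week 0, 3123 at week 2, 9939 and 8804 at week 4, 8679 and 8002 at week 8, and 6957 at week 9. The single B6 week 2 sample was the lowest of all 18, and its log2 change from week 0 was -1.38 ± 0.13 (adjusted p = 0.000104). In that sample the summed scaled signal of 8 platelet genes was 14202, against 29589.5 to 56244 in the other 17 samples, and all 8 were well above background in every sample. The part of the platelet genes in the Cd9 value was not tested. Cd9 rose in DBA/2 mice at week 2 by 0.37 ± 0.11 (adjusted p = 0.0445), and this call was lost when any of 14 of the 18 samples was left out.

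**Figure D2:**
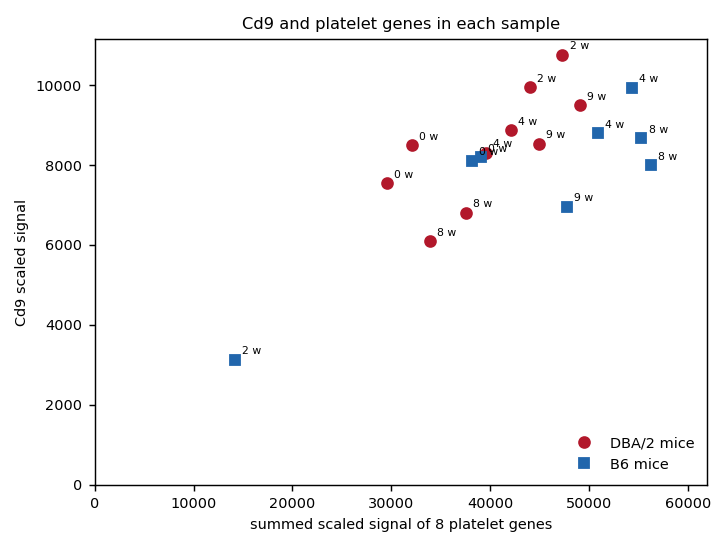
Scaled signal of Cd9 against the summed scaled signal of 8 platelet genes, with 1 point per sample labelled with its week (red circles, DBA/2 mice; blue squares, B6 mice; both axes start at 0). The B6 week 2 sample lies alone at 3123 for Cd9 and 14202 for the platelet genes, and the other samples range from 6092 to 10764 for Cd9.

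Ms4a7 encodes a membrane-spanning protein of macrophages and monocytes. It was dim, with 13 of the 18 samples well above background, and its scaled signal in DBA/2 mice was 2.4 and 8.45 at week 0, 4.44 and 11.1 at week 2, 4.60 and 10.8 at week 4, 5.39 and 12.9 at week 8, and 5.48 and 3.88 at week 9. In B6 mice it was between 1.77 and 4.69. Up to week 8 the second DBA/2 sample of each week, all of these on 1 slide, was above the first, all on another slide. The median gap between the replicates of a group was 1.16 on the log2 scale, against 0.088 to 0.25 for the other 8 genes, and in the fit without slide no comparison passed the test for Ms4a7. Within each of these slides the DBA/2 samples of weeks 2, 4 and 8 were above that of week 0, by log2 differences of 0.89 and 0.39 at week 2, 0.94 and 0.35 at week 4, and 1.17 and 0.61 at week 8. With slide as a fixed block the DBA/2 change at week 8 was 0.89 and passed the test, as did that in the mean of weeks 4 and 8, at 0.76, while the strain difference in that mean, 0.53, did not.

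Week by week, the counts over the 9 genes stood as follows in DBA/2 mice. At week 2 4 genes were called, Lyz2 and Cd9 higher and Ctss and Klf4 lower, where 15.7% of all probes were called. At week 4 6 were called, all higher, where 14.8% of all probes were called, and at week 8 the same 6, where 24.0% were called. At week 9 7 were called, these 6 higher and Spn lower by its brightest probe only, where 27.7% were called.

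In B6 mice 2 genes were called at week 2, Ctss higher and Cd9 lower, where 13% of all probes were called. At week 4 4 were called, Csf1r, Cd68, Adgre1 and Spn, all lower, against 15.7% of all probes. At week 8 3 were called, Adgre1, Lyz2 and Ctss, all higher, against 21.2%, and at week 9 the same 3 genes, against 9.33%. Under pan-leukocyte scaling none of the 9 was higher and 2 were lower in B6 mice at week 8. Because the groups at week 2 and week 9 in B6 mice hold 1 sample, the test there takes that sample to vary like those of the other groups.

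**Figure D3:**
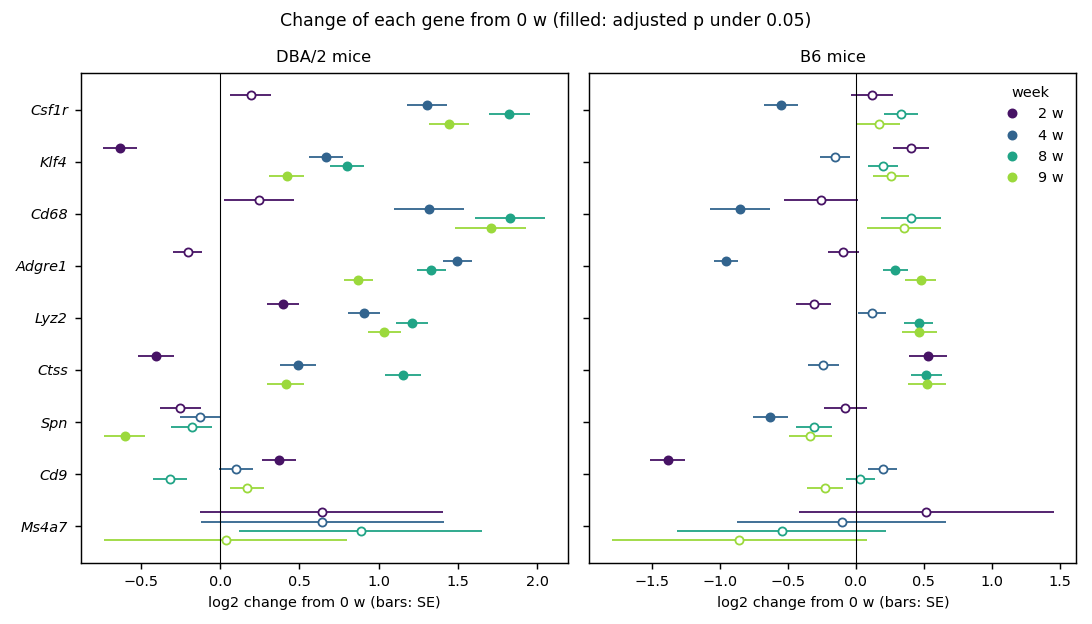
Log2 change from week 0 of each gene at the later weeks in DBA/2 mice (left) and B6 mice (right), with bars for the SE of the limma fit and filled points for adjusted p under 0.05. In DBA/2 mice the changes of Csf1r, Klf4, Cd68, Adgre1, Lyz2 and Ctss from week 4 on all lie to the right of 0, from 0.41 to 1.83, and in B6 mice the 4 called changes at week 4 lie between -0.96 and -0.55.

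The change differed between the strains for the same 6 genes. Markers of some other cells differed in the same direction, while neutrophil genes were mixed, as given below. In this strain difference all 6 tested natural killer cell genes were higher, with a median of 1.31, as were 6 of 10 tested genes of splenic or tissue macrophages, with a median of 1.82, and 6 of 9 tested hepatocyte genes, with a median of 3.24. Their part in the result was not tested. The DBA/2 change in the mean of weeks 4 and 8 exceeded that of B6 mice by a log2 difference of 1.80 ± 0.27 for Cd68, 1.75 ± 0.11 for Adgre1, 1.68 ± 0.16 for Csf1r, 0.77 ± 0.13 for Lyz2, 0.71 ± 0.13 for Klf4 and 0.68 ± 0.14 for Ctss. The adjusted p were 0.00252, 2.25e-05, 0.000166, 0.00392, 0.00755 and 0.0118. Spn (0.32 ± 0.16, adjusted p = 0.253), Cd9 (-0.22 ± 0.13, adjusted p = 0.34) and Ms4a7 (1.09 ± 0.94, adjusted p = 0.552) did not pass. Over all probes 13.2% were called and 6.48% were called higher, with a median of -0.04, against a median of 0.77 for the 9 genes. Without scaling between arrays 3 genes were higher and 1 lower. With normexp background correction the call stayed for Csf1r and Adgre1 but not for Cd68 (0.79), Lyz2 (0.69), Klf4 (0.67) and Ctss (0.61). The call for Ctss was also lost without DBA/2 week 0 replicate 2, where the difference was 0.61, and without B6 week 0 replicate 1, where it was 0.66.

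At week 4 alone the strain difference passed for these 6 genes, where 11.8% of all probes were called, and at week 8 alone for the same 6, where 17.5% were called. It was 2.45 ± 0.13 for Adgre1, 2.17 ± 0.31 for Cd68 and 1.86 ± 0.18 for Csf1r at week 4, and 1.04 ± 0.13, 1.43 ± 0.31 and 1.49 ± 0.18 at week 8. For Lyz2, Ctss and Klf4 it lay between 0.60 and 0.82 at both weeks with the brightest probe of each gene. The comparison at week 4 does not use the B6 week 8 samples with liver genes, and both comparisons use the B6 week 0 samples.

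**Figure D4:**
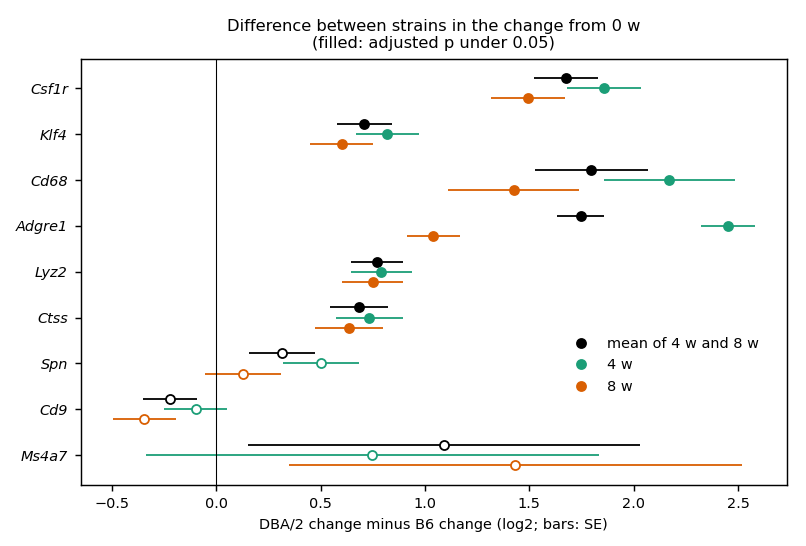
DBA/2 change from week 0 less the B6 change, in log2 units with bars for the SE, for the mean of weeks 4 and 8 (black), week 4 (green) and week 8 (orange), with filled points for adjusted p under 0.05. The points of Csf1r, Klf4, Cd68, Adgre1, Lyz2 and Ctss lie between 0.60 and 2.45, and those of Spn, Cd9 and Ms4a7 did not pass.

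The strains also differed before the later weeks. At week 0, 4 of the 9 genes were lower in DBA/2 mice than in B6 mice, where 32.7% of all probes were called in either direction. Csf1r was 2.02-fold, Adgre1 1.62-fold and Lyz2 1.37-fold lower, with adjusted p of 0.000256, 0.000338 and 0.00773. Cd68 was 3.44-fold lower (adjusted p = 0.000243), a fold that rests on DBA/2 signals of 4.79 and 3.58, the second not well above background. For Ctss, Klf4, Spn and Cd9 the DBA/2 week 0 mean differed from the B6 week 0 mean by -0.01, 0.01, 0.04 and -0.03 on the log2 scale. Quantile normalization turned the Lyz2 difference to 0.03.

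By week 4, 6 genes were higher in DBA/2 mice than in B6 mice, where 32.1% of all probes were called. They were Adgre1 (3.37-fold), Csf1r (1.80-fold), Klf4 (1.77-fold), Ctss (1.65-fold), Spn (1.45-fold) and Lyz2 (1.26-fold), with adjusted p from 8.01e-07 to 0.0341. Pan-leukocyte scaling turned Lyz2 at week 4 to -0.11. At week 8 5 genes were called, where 25.4% of all probes were, and Ctss (1.54-fold), Klf4 (1.52-fold), Csf1r (1.40-fold) and Adgre1 (1.27-fold) were higher and Cd9 (1.29-fold) lower in DBA/2 mice. For Cd68 the strains did not differ beyond the test at week 4 (0.39 ± 0.22, adjusted p = 0.225) or week 8 (-0.36 ± 0.22, adjusted p = 0.289). The strains lay mostly on different slides, so that strain and slide cannot be told apart in these level comparisons.

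The changes within a strain could be read within slides where the slide also held week 0 of that strain. Both DBA/2 week 9 samples lay on slides that held B6 samples and no DBA/2 week 0 sample. For the DBA/2 changes at week 9, week and slide therefore cannot be told apart. DBA/2 replicate 1 of weeks 0, 2, 4 and 8 lay on 1 slide and replicate 2 on another. On these slides the log2 change of Csf1r at week 8 was 1.95 and 1.70, that of Cd68 1.66 and 2.00, that of Adgre1 1.32 and 1.34, that of Lyz2 1.25 and 1.17, that of Ctss 1.23 and 1.08, and that of Klf4 0.80 and 0.80. For B6 mice at week 4, the change on each of the 2 slides that held week 0 and week 4 samples was -1.02 and -0.87 for Adgre1, -0.63 and -0.36 for Csf1r, -1.30 and -0.37 for Cd68, and -0.64 and -0.66 for Spn. Each of these values had the direction of the fitted change. The fitted change comes from the same samples, and only genes called at these weeks are listed here. Agreement in direction is therefore no separate check.

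Genes with several probes were compared between them. The dimmer of the tested Lyz2 probes had a strain difference of 0.57 ± 0.11 (adjusted p = 0.00856) and a DBA/2 change in the mean of weeks 4 and 8 of 1.16 ± 0.08 (adjusted p = 7.12e-06), but it was also higher in B6 mice by 0.59 ± 0.08 (adjusted p = 0.000856), where the brightest probe gave 0.29 ± 0.09 and did not pass (adjusted p = 0.06). In the dimmer Lyz2 probe the mean scaled signal at week 0 was 114 in DBA/2 mice and 149 in B6 mice. At week 8 it was 290 and 288, where the brightest Lyz2 probe had 22138 and 18057.5. The second Csf1r probe gave a strain difference of 1.64 ± 0.35 (adjusted p = 0.0154), and the third, well above background in 14 samples, gave 0.33 ± 0.56 and did not pass. The second Spn probe had a strain difference of 0.61 ± 0.09 (adjusted p = 0.00261) and was lower in DBA/2 mice at week 0 by -0.42 ± 0.08 (adjusted p = 0.0021), whereas the brightest Spn probe passed in neither. In that second probe the B6 week 0 samples, at 70.8 and 68.8, were above all 16 other samples, which ranged from 42.2 to 59.6. The remaining 4 probes, 1 each of Adgre1, Spn, Cd9 and Ms4a7, were well above background in at most 1 sample, and the Cd9 one is annotated on the strand opposite to the bright probe.

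The files' Lyz probe belongs by its accession to Lyz1, the neighbouring lysozyme gene, and was not counted among the 9. Lyz1 and Lyz2 are close copies, so that their probes may share signal. Lyz1 rose in DBA/2 mice in the mean of weeks 4 and 8 by 1.21 ± 0.07 (adjusted p = 2.84e-06) and in B6 mice by 0.46 ± 0.07 (adjusted p = 0.00208). The probes well above background in all 18 samples carried 9584 gene names, and clone, transcript and predicted-gene names were left out of the search below. Among the remaining other genes, Lyz1 was also the one whose pattern was nearest to Lyz2. The root mean square difference was 0.12 on the log2 scale after centring. Nearest to Csf1r were Rnpep (0.19), Tnfrsf1b (0.20), Naip2 (0.22), Clec4a3 (0.22) and Scarb1 (0.22), where Csf1r itself varied with a standard deviation of 0.60. For Spn, which varied by only 0.24, the nearest were Mrpl42, Smt3h2-ps, Hnrnpab, Wrnip1 and Zfp407, at 0.098 to 0.11.

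Other genes of the monocyte programme were taken from lists of lineage, subset and phagocyte genes. Their counts are to be read beside the 22.9% of all probes called in DBA/2 mice and 15.0% in B6 mice. Of 16 tested genes of the monocyte lineage and the Csf1r axis, 10 rose in the DBA/2 mean of weeks 4 and 8 and none fell, with a median log2 change of 0.91. In B6 mice 6 rose and 2 fell, with a median of 0.15. Of the ligands of the receptor, Csf1 had 0.01 ± 0.28 in DBA/2 mice and -0.16 ± 0.28 in B6 mice, neither past the test, and Il34 rose in both, by 0.92 ± 0.15 and 1.51 ± 0.15.

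Classical monocyte genes rose in 9 of 12 tested cases in DBA/2 mice and none fell, with a median of 1.31, and in B6 mice 7 rose and 1 fell, with a median of 0.41. Ccr2, the chemokine receptor by which these cells leave the marrow, rose by 1.63 ± 0.07 in DBA/2 mice and 0.69 ± 0.07 in B6 mice, and the strain difference of 0.95 ± 0.10 passed (adjusted p = 0.000318). Chil3 and F13a1 rose more in B6 mice, with strain differences of -0.87 ± 0.15 and -0.57 ± 0.11 that passed (adjusted p = 0.00437 and 0.00743). Of 12 patrolling monocyte genes 6 rose and 1 fell in DBA/2 mice, with a median of 0.30, while 1 rose and 2 fell in B6 mice, with a median of -0.15. Cx3cr1, the fractalkine receptor of patrolling monocytes, did not pass in DBA/2 mice (0.37 ± 0.13, adjusted p = 0.0769), and Treml4 did (0.69 ± 0.09, adjusted p = 0.000395).

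Of the 14 lysosomal and phagocyte genes, 13 rose in DBA/2 mice, with a median of 0.61, and 6 rose and 1 fell in B6 mice, with a median of 0.23. Aif1, which encodes the macrophage protein Iba1, rose by 2.50 ± 0.09 in DBA/2 mice, and Ctsl, another lysosomal cathepsin, rose by 2.01 ± 0.14 in DBA/2 mice and fell by 0.72 ± 0.14 in B6 mice. Relatives of Cd9 and Ms4a7 were mixed, with 6 of 14 higher and 4 lower in DBA/2 mice. Of 8 Kruppel-like factors other than Klf4, 2 rose in each strain, to be read beside the 22.9% and 15.0% of all probes called, and Klf6 rose in both, by 0.86 ± 0.05 and 0.41 ± 0.05.

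**Figure D5:**
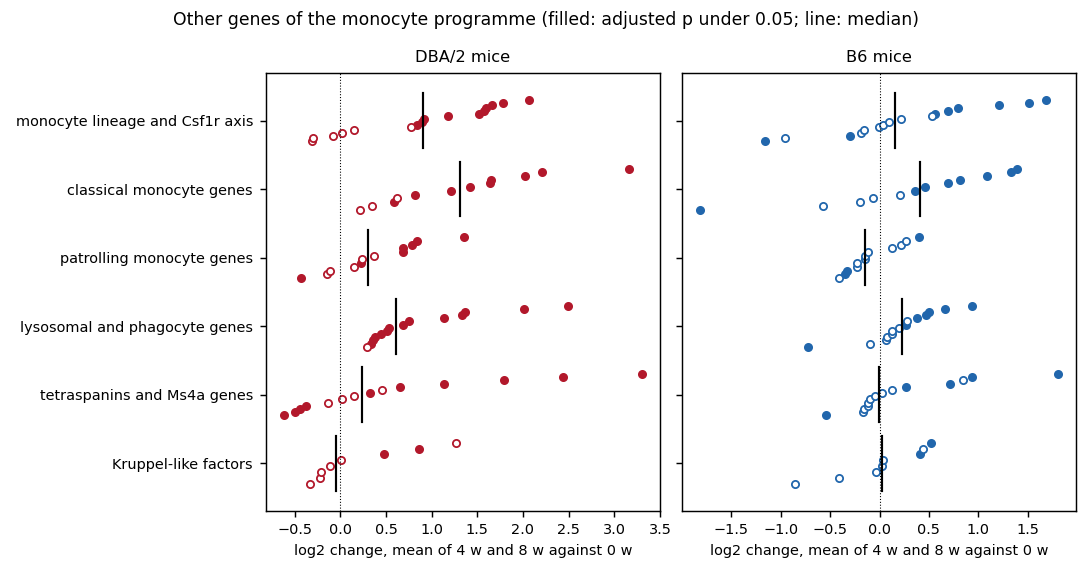
Log2 change in the mean of weeks 4 and 8 against week 0 of each tested gene of 6 lists of related genes, in DBA/2 mice (left, red) and B6 mice (right, blue), with filled points for adjusted p under 0.05, vertical lines at list medians and a dotted line at 0. The medians of the lineage, classical, patrolling and lysosomal lists were 0.91, 1.31, 0.30 and 0.61 in DBA/2 mice and 0.15, 0.41, -0.15 and 0.23 in B6 mice.

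Markers of other blood cells moved over the same weeks. In the mean of weeks 4 and 8, 22.9% of all probes were called in DBA/2 mice, 15.0% in B6 mice and 13.2% in the strain difference. All 10 tested neutrophil genes rose in the mean of weeks 4 and 8 in both strains, with medians of 2.34 in DBA/2 mice and 2.22 in B6 mice. Their summed scaled signal was 10635 to 10738 in DBA/2 mice at week 0 and 70409.8 to 78361 at week 8, against 5710 to 5732 and 42962 to 43169 in B6 mice, and in the strain difference 2 of the 10 were higher and 1 lower. T cell genes fell in 6 of 9 cases in DBA/2 mice and 4 of 9 in B6 mice, and none rose. Of 10 tested genes of splenic or tissue macrophages, 6 rose in DBA/2 mice, and in B6 mice 1 rose and 5 fell, and the summed signal of all 13 genes of that list with a probe was 182 to 289 in DBA/2 mice at week 0, 367 to 466 at week 4 and 274 to 384 at week 8, against 275 to 310.03, 156 to 178 and 230.4 to 233 in B6 mice. The part of these cells in the changes of the 9 genes was not tested.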

How the data were processed

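Leukocyte RNA of individual mice was hybridized in 1 colour to Agilent whole mouse genome arrays. The deposited spot intensities had been background-subtracted and detrended, per the file headers, by Agilent Feature Extraction (version 9.5.3.1 in the submitters' processing notes). Control spots and outlier spots were dropped, spots of a probe averaged, and the log2 intensity of each array reduced by its 75th percentile over 11536 probes well above background on all 19 arrays. The 2 arrays of B6 week 0 replicate 2 were averaged. The 22939 probes that passed a background filter in 2 or more of the 18 samples entered a linear model (limma 3.58.1, R 4.3.3) with a mean per strain and week and 8 residual degrees of freedom, and p-values were adjusted by Benjamini-Hochberg with a threshold of 0.05. These p-values measure the spread between these samples. The fit was run on simulated data with independent noise and no slide effect. That run does not cover dependence between samples of a slide. Probes were renamed through accession (24367), symbol (6307) or synonym (2425), and 8075 kept the name in the files.

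The genes were given, and the lists of related and cell type genes were chosen, with earlier results of these data known. Every member probe was reported, and a gene was represented by its brightest probe. For Csf1r, Lyz2 and Spn the 5 genes of nearest pattern were named. Genes of other lists were given as examples of their list, chosen after their values were seen. Probe positions in the files are on mm8 and were not mixed with the promoter positions on GRCm38.p6. Alternatives in background correction, scaling, filters, blocks and samples were run. The number of arrays limits the precision, and strain and slide largely coincide.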

Additional observations from a re-analysis of the deposited data

Results flagged for a closer look

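The change from week 0 differed between the strains for 6 genes by the limma test of the difference itself, where 13.2% of all probes were called in the mean of weeks 4 and 8, 11.8% at week 4 and 17.5% at week 8. With normexp background correction 2 of the 6, Csf1r and Adgre1, were called in the mean. In the mean of weeks 4 and 8 the log2 change of DBA/2 mice minus that of B6 mice was 1.68 for Csf1r, 1.80 for Cd68, 1.75 for Adgre1, 0.77 for Lyz2, 0.68 for Ctss and 0.71 for Klf4. At week 4 it was 1.86, 2.17, 2.45, 0.79, 0.73 and 0.82 for these genes in the same order. At week 8 it was 1.49, 1.43, 1.04, 0.75, 0.64 and 0.60.

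Where B6 mice have 1 sample, the strains moved in opposite directions in every sample for a few genes, and these differences were not tested. The share of all probes that did so was not counted, so the number of such genes is not read as a result. At week 2 the DBA/2 change minus the B6 change was 0.71 for Lyz2, -0.93 for Ctss, 1.75 for Cd9 and -1.04 for Klf4. At week 9 it was 0.40 for Cd9.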

How the results depend on the processing

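The number of genes called in the DBA/2 mean of weeks 4 and 8 stayed at 6 when any 1 sample was left out, that in the strain difference at 5 to 6, and that in the B6 mean at 0 to 3, with 0 without B6 week 0 replicate 1, B6 week 0 replicate 2 or B6 week 8 replicate 2 and 1 without B6 week 4 replicate 1. The calls summed over weeks ranged from 17 to 23 in DBA/2 mice, from 3 to 11 in B6 mice and from 12 to 16 between the strains, where all samples gave 23, 12 and 15. Normexp gave 0 in the B6 mean, 2 in the strain difference (Csf1r and Adgre1), 13 and 1 over the weeks and 7 between the strains. Scaling over all probes gave 1 in the B6 mean and 7 over the B6 weeks, no filter on dim probes 0 and 2, each strain fitted alone 1 and 6, and the values deposited without scaling 5 in the B6 mean. The cause was not tested.

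Of 4932 recomputed changes, 4518 kept direction and call, 302 lost the call, 90 gained it and 22 reversed. Quantile normalization reversed Lyz2 at week 0 (0.029) and Cd9 at week 4 (0.61) between the strains. Pan-leukocyte scaling reversed Adgre1 (-0.091) and Cd9 (-0.35) in B6 mice at week 8 and Lyz2 between the strains at week 4 (-0.11). The values without scaling, in which the all-probe median of the strain difference was -0.64, reversed the B6 mean of Csf1r (0.42), Adgre1 (0.20) and Spn (0.059), Spn in B6 mice at week 8 (0.71), and Ctss (-0.019) and Klf4 (-0.013) in DBA/2 mice at week 9. They also reversed the strain difference at week 8 for Adgre1 (-0.15), Lyz2 (-0.44), Ctss (-0.55), Spn (-1.06) and Klf4 (-0.59), and the strain level for Adgre1 (0.13), Lyz2 (0.37), Ctss (0.81) and Cd9 (0.80) at week 0, Cd9 at week 4 (0.68) and Adgre1 at week 8 (-0.021). The share of all called probes that were higher in the strain difference was 49.1%, against 84.4% with normexp, 37.8% with pan-leukocyte scaling and 4.93% without scaling.

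With the replicate number as a block, 6, 3 and 6 genes were called in the DBA/2 mean, the B6 mean and the strain difference. The main fit had no block, because the replicate numbers are not stated to mark shared animals or batches. Deviations of same-numbered samples correlated from -0.01 to 0.46 over 28 pairs, 12 of them over 0.1, which does not show that the samples are unpaired. Every replicate 1 was scanned on 1 day and every replicate 2 on another. With slide as a random block the consensus correlation within slides was 0.46, a dependence that the main fit leaves out. Signal over background limits Cd68 and Ms4a7.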

Other observations

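Markers of other blood cells are given here as values for the mean of weeks 4 and 8 against week 0. All 6 tested natural killer cell genes rose in DBA/2 mice, with a median log2 change of 0.59, and all 6 fell in B6 mice, with a median of -0.76. Of 7 B cell genes 5 fell in DBA/2 mice and none passed in B6 mice. Of 5 erythroid genes 2 rose in DBA/2 mice and 2 fell in B6 mice, and of 5 tested dendritic cell genes 1 fell in each strain. Of 8 platelet genes 6 rose in each strain, and all 9 tested hepatocyte genes fell in B6 mice. Of 10 pan-leukocyte genes 4 rose and 1 fell in DBA/2 mice, and 4 rose in B6 mice. All these counts are to be read beside the share of all probes called, 22.9% in DBA/2 mice and 15.0% in B6 mice.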
